A study of Mus musculus with 2 samples.

Results

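In the central nervous system of mouse embryos at day 18, 956 contigs of polyadenylated RNA lay on the strand opposite to an annotated gene and on no annotated gene of their own strand. A contig is a stretch of genome covered by reads of 1 strand without a gap, built in mm9 from both libraries of the study together. The contigs were chosen by measured values: a level of at least 1, an irreproducibility score of at most 0.1, and an overlap with an Ensembl 65 gene on the opposite strand alone. Of 858138 contigs in the table, 38829 met both limits. Of these, the 956 antisense contigs made up 2.462%, 35874 lay on a gene of the same strand and 1999 on no gene. The level, the rule and all counts that follow from the rule are descriptions and were not tested.

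The study holds 1 group of 2 libraries, replicate 2 and replicate 1, from C57BL/6J embryos at 18 days, with no treatment, mutation or control group. Each library came from littermates of both sexes pooled, so single embryos are not resolved. The RNA was rRNA-depleted and polyadenylated, longer than 200 nt, and was sequenced with its strand kept as read pairs (PE101, which gives the read length used below). The gene tables of GRCm38 assigned 137012773 fragments to genes in replicate 2 and 93979836 in replicate 1. Markers of neurons summed to 4382 TPM in replicate 2 and 4696 TPM in replicate 1, and markers of radial glia and astrocytes to 2236 and 2030 TPM in the same order. Markers of other tissues differed more: skeletal muscle summed to 648 TPM in replicate 2 and 19.6 TPM in replicate 1, bone and cartilage to 168 and 34.2, choroid plexus to 1415 and 437, and epidermis to 6.83 and 85.4 TPM in the same order. The part of these tissues' RNA in any contig was not tested, since the contig table gives 1 pooled level and no value per library. Contig levels therefore carry no replicate error.

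Antisense transcription takes several known forms. Promoters of active genes often fire in both directions, so that an RNA runs outward from the 5' side of a gene on the other strand. Neighbouring genes on opposite strands can overlap at their 3' ends, and long noncoding RNAs can cross a whole gene, as the Ube3a antisense transcript does in neurons. Stranded libraries also place a small share of reads on the wrong strand, as a known property of such protocols. The gene on the opposite strand is called the host.

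The sequences of 2 kinds of site are shown first, because 2 sets of contigs were told apart by where their edges lay. The first set had the outline of an exon of the host: both edges of the contig fell within 5 nt of the edges of an opposite-strand exon. In 4 examples the exon, read from the GENCODE M21 transcript of the same Ensembl identifier (GRCm38), is printed in capitals, 5' to 3' on the host's strand, between the 20 bases that precede and follow it in the spliced mRNA in lower case. The capitals are the bases that the contig covered on the other strand.
Anp32a: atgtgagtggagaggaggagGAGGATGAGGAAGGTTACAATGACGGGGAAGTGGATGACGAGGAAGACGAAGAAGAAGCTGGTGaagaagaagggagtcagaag
Luc7l2: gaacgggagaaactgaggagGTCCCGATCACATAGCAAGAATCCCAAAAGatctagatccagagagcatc
Psmd2: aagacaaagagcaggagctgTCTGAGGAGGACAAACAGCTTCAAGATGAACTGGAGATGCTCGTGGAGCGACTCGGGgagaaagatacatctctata
Hk1: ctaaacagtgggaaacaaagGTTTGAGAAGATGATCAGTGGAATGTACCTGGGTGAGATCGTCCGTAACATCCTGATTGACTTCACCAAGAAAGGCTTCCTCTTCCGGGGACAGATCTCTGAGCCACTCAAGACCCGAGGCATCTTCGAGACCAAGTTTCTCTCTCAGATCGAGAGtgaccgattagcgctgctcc
These are coding exons 6 of Anp32a (chr9:62377300-62377363, plus strand), 8 of Luc7l2 (chr6:38598785-38598814, plus), 2 of Psmd2 (chr16:20652244-20652300, plus) and 18 of Hk1 (chr10:62274447-62274602, minus). In mm9 the contigs lay at chr9:62225104-62225171 (minus), chr6:38548783-38548816 (minus), chr16:20652312-20652378 (minus) and chr10:61737195-61737352 (plus). They reached past the exon by 3 and 1 nt at Anp32a, 2 and 2 nt at Luc7l2, 5 and 5 nt at Psmd2, and 0 and 2 nt at Hk1, counted at the lower and the higher coordinate.

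The second set comprised long contigs that began inside the host and ran out past its 5' end. For 3 of their hosts the 250 bases before the transcription start are printed below, 5' to 3' on the host's strand, from RefSeq on GRCm38.p6, with CG dinucleotides in capitals. Mat2a had the highest contig level of those with a promoter shown here, Cpsf2 the most junction reads, and Scaf8 combined a level of 3.04 with spliced reads.
Mat2a: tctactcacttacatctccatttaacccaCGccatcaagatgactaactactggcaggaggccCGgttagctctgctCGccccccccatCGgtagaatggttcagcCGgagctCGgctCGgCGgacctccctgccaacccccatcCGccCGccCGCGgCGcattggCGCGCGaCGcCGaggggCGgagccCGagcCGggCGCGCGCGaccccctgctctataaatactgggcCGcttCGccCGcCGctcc
Cpsf2: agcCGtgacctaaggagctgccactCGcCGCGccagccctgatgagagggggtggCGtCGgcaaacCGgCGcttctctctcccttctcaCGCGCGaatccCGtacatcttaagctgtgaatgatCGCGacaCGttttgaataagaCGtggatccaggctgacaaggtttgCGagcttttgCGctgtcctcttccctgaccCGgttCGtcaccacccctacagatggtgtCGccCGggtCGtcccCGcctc
Scaf8: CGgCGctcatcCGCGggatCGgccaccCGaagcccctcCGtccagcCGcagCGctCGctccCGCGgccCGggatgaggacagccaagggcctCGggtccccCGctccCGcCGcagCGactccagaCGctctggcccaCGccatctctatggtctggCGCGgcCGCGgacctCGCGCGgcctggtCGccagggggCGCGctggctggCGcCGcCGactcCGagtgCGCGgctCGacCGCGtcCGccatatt
The windows are chr6:72439557-72439806 (minus), chr12:101975724-101975973 (plus) and chr17:3114722-3114971 (plus), and hold 29, 24 and 40 CG dinucleotides. Over the 62 hosts of this set, 47 had a RefSeq promoter by symbol, with 56 windows in all. The median window of these held 20.5 CG dinucleotides (quartiles 13.5 and 27.2), against 6 (quartiles 2 and 16) over all 32851 windows of the same length. GGGCGG on either strand was found in 34 of the 56 windows (60.7%) and in 32.7% of all windows. TATAAA on either strand was found in 2 of the 56 (3.6%) and in 12.4% of all windows. Windows of hosts whose contig was shorter than a read and lay in an intron stood in between, with a median of 14 CG dinucleotides over 489 windows. GGGCGG was found in 50.1% of these 489 and TATAAA in 5.7%, so neither share was particular to the hosts of long outward contigs. These are counts of letters. Genes of higher level were more often hosts, as given below, and the part of gene level in these counts was not tested.

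The antisense contigs fell into many short pieces and a few long ones. Of the 956, 558 (58.37%) were shorter than a single read, and these held 2.778% of the summed length. The 158 contigs of 1000 nt or longer (16.53%) held 88.52% of it. The median length was 64.5 nt, the shortest 12 nt and the longest 39446 nt. In the other sets above the same limits, 57.63% of contigs on no gene and 3.175% of contigs on a same-strand gene were shorter than a read. The median length was 66 nt on no gene and 1982 nt on a same-strand gene.

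**Figure D1:**
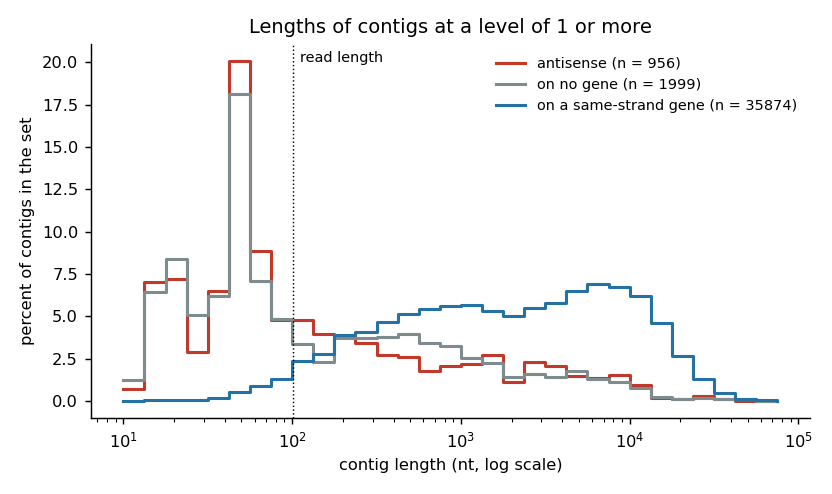
Share of contigs (percent of each set, vertical axis) by contig length (nt, log scale, horizontal axis) for the 956 antisense contigs, the 1999 contigs on no gene and the 35874 contigs on a same-strand gene; the dotted line marks the read length. The antisense and no-gene sets peak below the read length, with 58.37% and 57.63% of contigs left of the line, against 3.175% of the same-strand set.

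Levels were low for most contigs. A level of 1 corresponded to a mean depth of 62.99 bases over both libraries pooled, and the median level was 1.85 (quartiles 1.27 and 3.175). The 2 members at the threshold had a level of exactly 1, and the nearest antisense contig outside it had 0.998. There were 84 members below a level of 1.1, while 10 antisense contigs lay between 0.99 and the threshold. The score limit mattered little, since 839 members had a score of 0, the highest score was 0.09, and 2 antisense contigs of sufficient level were left out, the lower with a score of 0.13. The contigs lay on 894 hosts, of which 861 had a gene symbol, and 472 were on the plus and 484 on the minus strand. Among 854 main hosts, taken as the gene with the most shared bases, 775 had 1 contig, 59 had 2 and 20 had 3 or more.

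Most contigs lay inside introns. Of the 956, 357 (37.34%) overlapped an exon of the opposite strand, 157 (16.42%) covered or lay within 1 kb of a host's 5' end, and 82 (8.577%) of its 3' end. With each contig in 1 class, 585 were internal and intronic, 177 internal and exonic, 112 at the 5' end, 37 at the 3' end and 45 at both ends. The classes differed with length: 475 of the 558 contigs shorter than a read (85.13%) were internal and intronic, against 24 of the 158 contigs of 1000 nt or longer (15.19%). A longer contig meets an exon or a gene end more readily, and length was not corrected for. Hosts were more often expressed than genes at large. In the mm9 gene table, 65.48% of contigs had a host at a mean RPKM of 1 or more, a level reached by 29.15% of all 37310 genes. Within the set, contig level and host RPKM had a Spearman correlation of -0.014 across the 956 contigs, which share their libraries and in part their hosts.

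**Figure D2:**
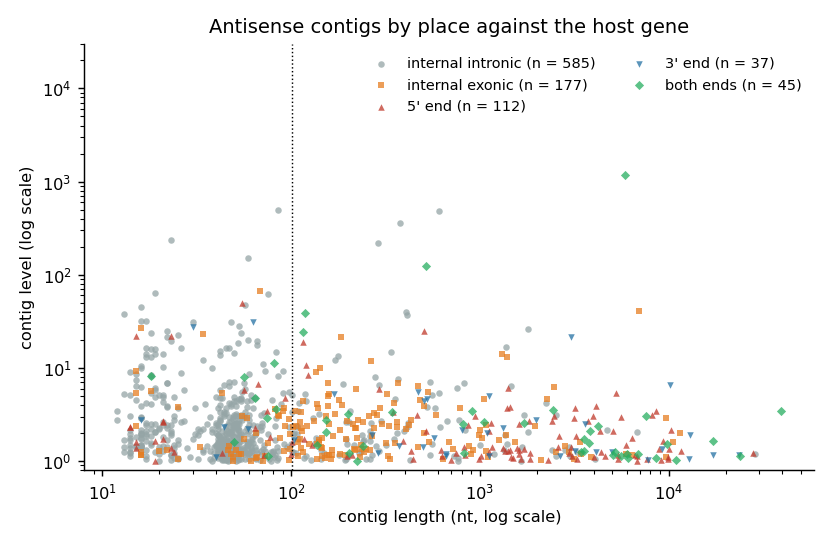
Level (log scale, vertical axis) against length (nt, log scale, horizontal axis) of each of the 956 antisense contigs, marked by place against the host; the dotted line marks the read length. Internal intronic contigs (585) gather below the read length at levels near 1 to 10, and contigs at the 5' end (112) lie mostly to the right of it.

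Of the 10 contigs of highest level, 5 were shorter than a read. The contig at the top, at chr17:39979941-39985836 on the plus strand, had a level of 1170 over 5896 nt and alone held 71.2% of the aligned bases of all members. It covered the whole of ENSMUSG00000045999, a 725-nt gene on the minus strand with no symbol in the tables used here, and 12.3% of its length lay within that gene. The transcript behind it is not named in the tables used here. Whether it is ribosomal RNA that passed the depletion was not tested, so its level, its share of bases and its junction reads may say nothing of mRNA. Its most used junction had 1601 and 1785 reads in replicates 1 and 2 of the junction table, whose numbers are not tied to either library. Next came an 85-nt contig at 491 in an intron of Il1rapl1, a synaptic adhesion gene on the X chromosome, with 3 junction reads. A 609-nt contig at 485 lay in an intron of Jarid2, which encodes a cofactor of the Polycomb complex PRC2. A Cufflinks gene model on its strand had 95.7 and 87.4 RPKM in the mm9 replicates. Contigs in introns of Arhgap21 (376 nt), Ntn4 (23 nt), Sspn (289 nt) and Dnah8 (59 nt) had levels of 361, 239, 219 and 153. Arhgap21 had 13.5 and 9.29 RPKM in the mm9 replicates, and Ntn4, Sspn and Dnah8 had at most 0.383 RPKM in either. The list of the 10 highest ended with Gm9800 (519 nt, level 125), Anp32a (68 nt, 67.7) and Ptprd (19 nt, 63.1).

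Contigs shorter than a read were seldom touched by a same-strand junction of 10 or more reads, with 44 of 558 (7.885%). Of the 558, 139 (24.91%) had an end of a same-strand junction within 2 nt of an edge, as had 336 of 1152 short contigs on no gene (29.17%). Among the 1139 short contigs on a same-strand gene, 945 (82.97%) had one, and 514 had junction ends at both edges, against 13 of the 558. A junction read of any number touched 388 of the 558, with a median of 1 read. Their lengths were uneven: 166 were under 30 nt and 263 were 40 to 60 nt. A read aligned in full without a gap covers more bases than these contigs have, and how these pieces came to be shorter was not tested.

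Contigs with the outline of a host exon numbered 69 on 58 hosts. Their median length was 114 nt, the shortest 34 and the longest 468 nt, and their median level was 1.78. None of the 69 was touched by a same-strand junction of 10 or more reads, and the most on any was 6. On the opposite strand 64 of them met a junction of 10 or more reads, with a median of 763 reads. Summed over the 69, the same-strand junction reads came to 0.0472% of the opposite-strand ones. How the strand of a junction was set is not stated. Where it was read from the splice sites, reads across the host's own junctions would count on the host's strand in any case. These junction counts therefore cannot be set against the contig level. The contig level had a median of 13.6% of the exon's level (quartiles 9.7 and 22.6%, 67 contigs with an exon value). The rule left out contigs below a level of 1, so low percentages are missing from this ratio by construction. For this ratio the exon RPKM was brought to the contig scale by a factor of 4.3, the median over 2171 same-strand contigs that matched 1 exon (quartiles 3.21 and 6.06), so a single percentage is rough. The highest RPKM of any opposite-strand exon over most of the contig was taken. It was mostly not particular to 1 exon where a host had more than 1 such contig among the matched coding exons. Exons 20 and 21 of Ccar1 both came to 11.99 on the contig scale. The exons of Rbm25, Atg3, Atp2b1, Zc3h4 and Tcf12 likewise shared a value within each gene, while those of Cald1 had 12.61 and 12.52. The ratio thus does not strictly compare a contig with its own exon. Outside chromosome 18, 55 of 67 such contigs could be matched to a coding exon of GRCm38, and they reached a median of 2 nt past its lower and 1 nt past its higher edge.

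Single cases of this kind ran from 4.15% of this exon value to far above it. The contig was above the exon value for 3 of the 67. The highest percentages were those of Rps3, a ribosomal protein gene, with 2.73 against 0.182 (1498%), and Abcf1, with 1.84 against 0.374 (492%), and both exons had values near 0. At Anp32a, a histone-binding nuclear phosphoprotein, the contig had a level of 67.7 against 148 for the exon, or 45.6%, with 4 same-strand and 13070 opposite-strand junction reads. At Luc7l2, a splicing factor of the U1 snRNP, the contig had 23.2 and the exon 18.6, with 1 and 4032 junction reads. Both stood above the upper quartile. At Psmd2, a subunit of the proteasome's regulatory particle, the contig had 6.77 against 58.8 for the exon, or 11.5%, with 1 and 4774 junction reads. At Hk1, a hexokinase, it had 5.26 against 47.4, or 11.1%, with 1 and 2558 junction reads. The contig at Cplx2, which encodes a complexin of the synapse, had 4.53 against 35.7, or 12.7%, with 0 and 2652. The rest of the mostly exonic contigs, 131 without the outline of an exon, had a median of 23.3% of the exon value.

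**Figure D3:**
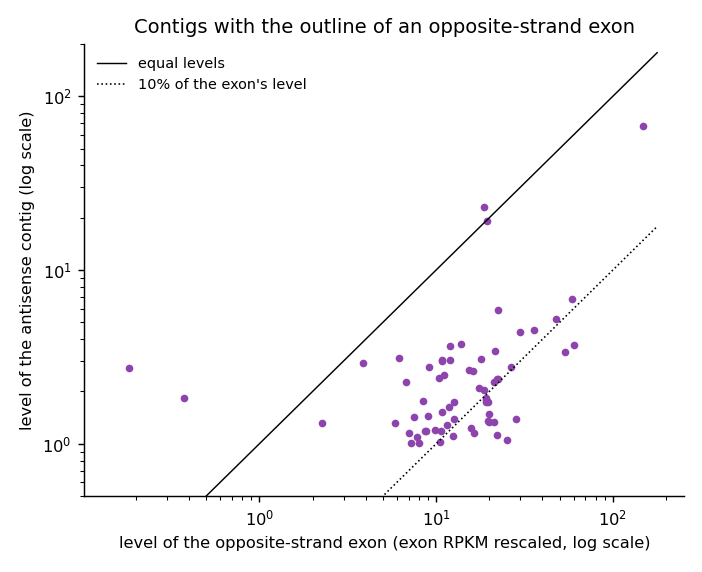
Level of each of 67 contigs with the outline of a host exon (log scale, vertical axis) against the exon value, given as exon RPKM times 4.3 (log scale, horizontal axis). The exon value was often shared by exons of the same gene. The lines mark equal levels and 10% of the exon value. Most points lie near the lower line, with a median of 13.6%, while Anp32a (67.7) stands highest, Luc7l2 (23.2) lies just above the line of equal levels, and Rps3 (2.73) and Abcf1 (1.84) lie far above it at the left.

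Over all lengths, contigs were set beside the opposite strand in a second way, by the level of opposite-strand contigs over the same bases. Such a contig existed for 774 of the 956, and the median ratio of member to opposite contig was 3.512; the opposite contig was higher for 227 of the 774. The ratio was 7.394 for contigs shorter than a read and 1.175 for those of 1000 nt or longer. Members had to reach a level of 1, while opposite contigs of any level were taken, so a ratio above 1 is favoured by the rule. An opposite contig can span introns, and its level is a mean over its whole length, so the ratio does not compare the same bases strictly. At Gap43, a growth cone protein of young neurons, a 504-nt contig over the 5' end had a level of 24.6 against 3.51 for the opposite contig, while the host had 161 and 158 RPKM in the mm9 replicates. The contig also met an opposite-strand junction of 56555 reads.

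Long contigs gathered at the 5' ends of hosts. Of the 158 contigs of 1000 nt or longer, 87 (55.06%) covered or lay near a host's 5' end and 41 (25.95%) its 3' end. Running outward, 62 (39.24%) began inside the host and left it past the 5' end, 31 entered from beyond the 3' end, 65 lay within the host throughout, and 9 of those entering crossed the whole host. The 62 began a median of 694 nt inside the host (quartiles 466 and 1092 nt), 43 of them within 1 kb, and reached a median of 2305 nt past the 5' end. Their median level was 1.35, and the median mean RPKM of their hosts was 3.791.

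**Figure D4:**
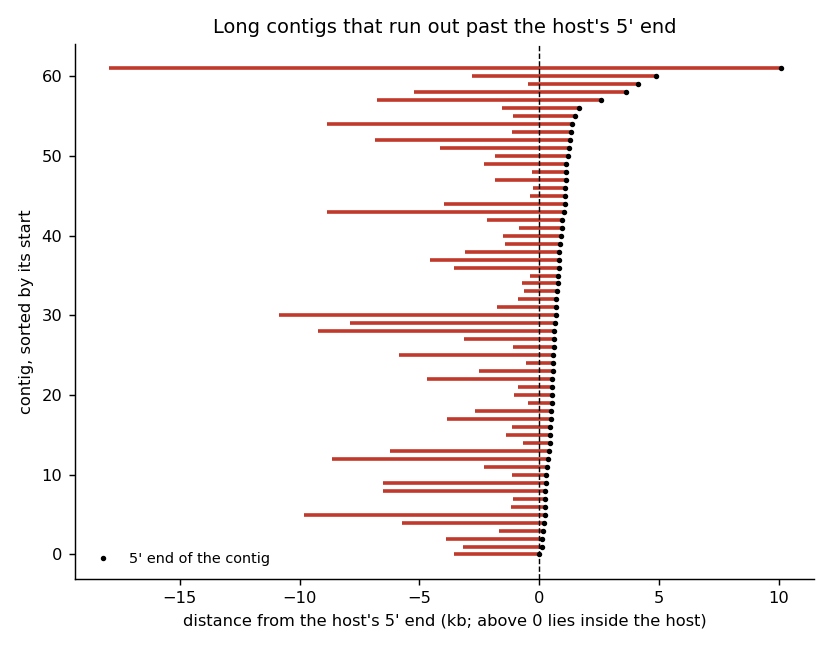
Extent of the 62 long contigs that run out past the host's 5' end, 1 line a contig, along the distance from that end (kb, horizontal axis; above 0 lies inside the host), sorted by the start of the contig (black point). Starts cluster close to the end, 43 of 62 within 1 kb, while the far ends are spread over several kb; the longest belongs to Ube3a, which starts 10095 nt inside.

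Examples of these outward contigs, picked after their values were seen, differed in splicing. At Mat2a, which makes S-adenosylmethionine, the contig was 5222 nt long with a level of 5.42, began 559 nt inside the host and met 1 junction read. The host stood at 26.9 and 28.6 RPKM. At Cpsf2, a subunit of the mRNA cleavage and polyadenylation complex, the contig was 8537 nt long with a level of 3.42 and began 652 nt inside. It was spliced: an unannotated intron of 6022 nt had 1873 and 2896 reads, more than the 373 of the host's best junction there. At Scaf8, a protein that binds the tail of RNA polymerase II, the contig was 3947 nt long at a level of 3.04, began 851 nt inside and had an intron of 840 nt with 142 and 223 reads. At Slc20a1, a phosphate transporter, the 3200-nt contig had a level of 3.69 and at most 2 junction reads. The contig at Ino80, a chromatin remodeller, had 3.83 over 1437 nt with 4 junction reads.

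Splicing on the contig's own strand was found more often on long contigs. A longer contig has more bases on which a junction end can fall, and length was not corrected for. A same-strand junction of 10 or more reads touched 132 of the 956 (13.81%), with 67 of the 158 long contigs (42.41%) and 44 of the 558 shorter than a read (7.885%). The most reads belonged to contigs of 118 nt at Gm12896 and 115 nt at Gm12895, and both touched the same junction of 3220 and 2932 reads. Its intron of 261632 nt joined one contig to the other, and a single Cufflinks model of 24.8 and 12.5 RPKM covered both. Reads could be split between near-identical copies here, so both contigs are uncertain. At Sfi1, a centrosomal protein gene, a contig of 1312 nt with a level of 14 had an intron of 31853 nt with 1562 and 2565 reads. All of these junctions were marked as unannotated in the deposited table. A Cufflinks gene model lay on the same strand over 310 contigs (32.43%). These were 303 models, of which 42 reached an RPKM of 1 in both mm9 replicates (13.86%), against 3.566% of all 122984 models. The contigs under these models were chosen by level in the same libraries, so a higher share is favoured by the rule.

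The longest contigs crossed whole genes or parts of them. The longest, 39446 nt at chr14:55672042-55711487, covered Zfhx2, a homeodomain zinc finger factor of neurons, from beyond the 3' end to 602 nt past the 5' end, with a level of 3.46. Its best junction had 208 and 216 reads, while the host had 0.807 and 0.658 RPKM. Contigs of 28070 and 10594 nt lay antisense to Ube3a, a ubiquitin ligase that neurons express from the maternal allele, with levels of 1.22 and 1.59. The shorter of them touched a junction of 147 and 236 reads across 85882 nt. A contig of 28782 nt opposite Gm20388 (chr8:125247759-125276540) had a level of 1.18 and 102 and 155 reads. It covered a part of that host, on which another contig lay at chr8:125088552-125091813. One of 23892 nt opposite Ripor1, Mir1966 and Ctcf had 1.13 and 135 and 180 reads. One of 23679 nt at Slc16a4 had 1.17 and no more than 20 reads. At Copg2, a coatomer subunit gene of an imprinted region, a contig of 6985 nt had a level of 40.4, began 54355 nt downstream of Mest on the same strand, and lay under a model of 11.7 and 13.8 RPKM. Only 49 of the 956 contigs (5.126%) began within 5 kb downstream of a same-strand gene, 19 of them long.

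Each gene group of the developing brain held few hosts by count. Hosts were found for 8 of 93 homeobox and neural transcription factor genes that the gene table holds (8.6%). They made up 5 of 50 synapse and channel genes (10%), 3 of 15 protocadherins (20%) and 4 of 45 imprinted genes (8.89%). Of genes of young neurons and growth cones, 2 of 24 (8.33%) were hosts, as were 4 of 60 genes known to have an antisense RNA (6.67%). Of skeletal muscle genes, 0 of 33 were hosts. Of all genes, 2.4% were hosts, and of genes at a mean RPKM of 1 or more, 5.22%. The counts are small and the lists differ in level, so they stand as descriptions. On synapse and channel hosts 5 of 6 contigs were shorter than a read, and on imprinted hosts 1 of 5. Among them Camk2b, a calcium-dependent kinase, had 47 nt at a level of 7.05, Cacna1b, a presynaptic calcium channel, 90 nt at 9.18, Zbtb20 54 nt at 23.8, Pcdh15 42 nt at 4.79, and Trappc9 30 nt at 31.4. Longer ones lay at Myt1l, a neuronal zinc finger factor (532 nt, 5.55), Nrep (463 nt, 3.1), Pcdhgc4 (3372 nt, 1.6) and over Sox2 (268 nt, 1.92). The contig at Myt1l met 1 same-strand and 1279 opposite-strand junction reads. At host ends, Stim2 (55 nt, 50) and Gap43 led at the 5' end, and Akr1a1 (63 nt, 30.8) and Fev (30 nt, 27.2) at the 3' end.

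The GRCm38 gene tables, with values for each library, gave levels of genes that a later annotation places opposite the hosts. Hosts were matched by gene identifier, and 861 were in GENCODE M21. Of these, 459 overlapped 1 or more genes on the opposite strand, and 159 had such a gene that reached 1 TPM in each library. Such a gene overlaps the host, which does not place it on the contig itself, since coordinates were not moved between builds. The same shares over all GENCODE genes were not counted, so these counts stand as descriptions and are no trait of hosts. Genes absent from Ensembl 65 were taken apart, since the contigs had no same-strand gene in that annotation. Whether these genes lay on a contig was not measured either. Of 422 genes absent from Ensembl 65, 208 had a TPM, and 30 of these on 27 hosts reached 1 in both libraries. Of the 30, 13 were typed as antisense, 5 as lincRNA and 5 as TEC (to be experimentally checked). A further 3 were typed as processed transcript, 2 as protein-coding, 1 as bidirectional promoter lncRNA and 1 as pseudogene. They lay mainly on hosts of long contigs. Among 156 hosts whose longest contig was 1000 nt or more, 19 (12.2%) had one, against 3 of 209 (1.44%) with a longest contig between a read and 1000 nt and 5 of 496 (1.01%) with contigs shorter than a read only.

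Snhg14, the paternally expressed transcript that runs antisense to Ube3a in neurons, had 332 TPM in replicate 2 and 320 TPM in replicate 1 (mean 326 ± 8.7, SD, n = 2). Its host Ube3a had 9.47 and 10.8 TPM in the same order. Snhg14 runs over chr7:59307924-59975759 in GRCm38 and overlapped the annotated Ube3a by 3613 nt, at the 3' end of Ube3a. The 28070-nt contig began 10095 nt inside Ube3a and ran out past the 5' end, so it lay away from those bases. Whether the shorter contig at Ube3a lies within the annotated Snhg14 was not measured. The TPM of Snhg14 is that of the whole gene and does not give the level of antisense RNA across Ube3a. Mir124-2hg, the host transcript of a neuronal microRNA, had 66.7 and 67.3 TPM opposite the small RNA gene Gm23441. Smim18 had 51.7 and 48.4 TPM opposite Gtf2e2, a general transcription factor gene, and Tmem147os had 38.8 and 38.8 TPM opposite Gapdhs, which had 0.14 and 0.11 TPM. Zfhx2os had 15.2 and 18.3 TPM, above the 6.58 and 7.94 TPM of Zfhx2. Gm4430 had 10.6 and 10.7 TPM opposite Slc20a1, far below the 62.3 and 69.9 TPM of that host. The mean TPM was above that of the host in 9 of the 30 pairs. In each of the pairs named, the difference between gene and host was larger than that between the libraries.

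**Figure D5:**
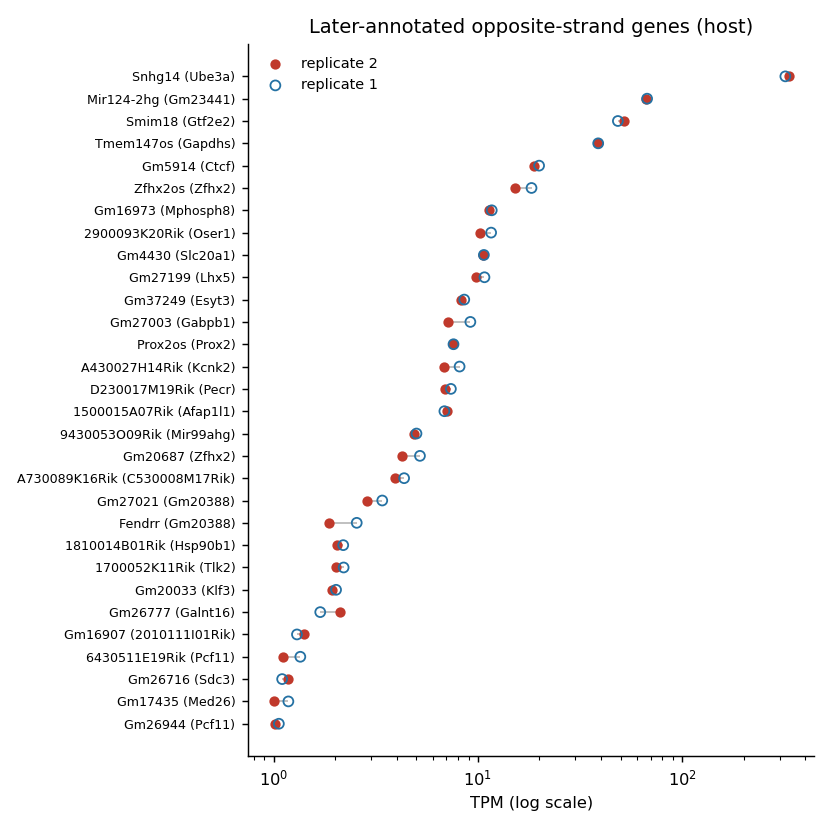
TPM (log scale, horizontal axis) in replicate 2 (filled points) and replicate 1 (open points) of the 30 genes that overlap a host on the opposite strand, are absent from Ensembl 65 and reached 1 TPM in both libraries, with the host in brackets. The levels run from Snhg14 at 332 and 320 TPM down to Gm26944 at 1.02 and 1.06 TPM, and the points of a gene lie close together.

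Among all opposite-strand genes the highest mean TPM were those of long-annotated protein-coding neighbours. Sod1, opposite Scaf4, had 551 TPM in replicate 2 and 552 TPM in replicate 1, and after Snhg14 came Ina with 236 and 241, Araf with 216 and 208, Plekha1 with 171 and 175, and Mest with 177 and 155 TPM. Mien1, Dynlt1a, Rab10 and Lamtor1 completed the first 10, at 160 and 149, 149 and 143, 134 and 137, and 129 and 130 TPM. Araf and Mien1 shared 9 nt with their hosts Syn1 and Erbb2. Plekha1 was counted through Fgfr2, a host model that also overlaps Bub3 and Lhpp. The distance of these genes from a contig was not measured.

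Between the libraries most of these genes differed little. At a mean TPM of 1 or more there were 217, with a median log2 ratio of replicate 2 over replicate 1 of -0.021 (quartiles -0.113 and 0.082), against -0.009 for all 15281 genes at that level. A fold of 2 or more was reached by 8 of the 217, all higher in replicate 2 and 0 lower, which is 3.69%. The background over all 15281 genes was 2.91% either way, 2.05% higher and 0.857% lower. The 8 include Atp2a1, the calcium pump of muscle, with 16 TPM in replicate 2 against 0.08 TPM in replicate 1 (log2 ratio 6.48), and Acta1, skeletal muscle actin, with 167 against 10.2 TPM (4.04). Gm15899, a processed pseudogene, was listed at 9.02 TPM in replicate 2 and at 0 in replicate 1, so its ratio depends on the prior count and is not given. Summed markers of muscle, of bone and cartilage and of choroid plexus were also higher in replicate 2, and those of epidermis lower, as given above, and their part was not tested. The lowest ratios were those of Htra1 (-0.94), Gm26935 (-0.78) and Timp1 (-0.64). Acta1 was counted through the host Gm20388 and Htra1 through Fgfr2. Each of these host models overlaps several other opposite-strand genes, so genes counted this way need not lie near a contig. Of the 31 genes absent from Ensembl 65 at that mean level, 0 reached a fold of 2, with ratios between -0.78 and 0.32. With 1 group of 2 libraries, these ratios have no replicate check and no test.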

How the data were processed

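The authors deposited, for both libraries together on mm9, contigs with a signal level and an irreproducibility score, junctions with read counts of 2 replicates, and RPKM tables of Ensembl 65 genes and exons and of Cufflinks models. Per the file headers the gene tables on mm10 with annotation M4 give expected counts and TPM per library. No aligner or quantification program is named in the labels or headers. The level equals summed aligned bases per contig length over a constant, as worked out from the values, and the score's method is not stated.

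Contigs were intersected with genes by strand in Python 3.11.15 with pandas 2.3.3, after a check of the interval code on simulated data. Expected counts were rounded and scaled with TMM factors in edgeR 4.0.16 with a prior count of 1; DESeq2 1.42.0 size factors were an alternative. With 1 group no test was run. Named contigs are the 10 of highest level, the 5 longest, the 5 with most junction reads and the leaders of each place and list, with genes of highest TPM and extreme ratios; the sequences shown and the other contigs named were picked after their values were seen. The members and lists were chosen with earlier results of these data known. Junction and RPKM replicate numbers of mm9 could not be tied to a library. Contig sequence on mm9 was not used here.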

Additional observations from a re-analysis of the deposited data

How the results depend on the processing

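A minimum level of 2 left 439 contigs and a median ratio to the opposite contig of 4.76. A score limit of 0.01 left 887 contigs, a subset of the same contigs, with 38.9% over an exon and a ratio of 3.317. Requiring 50% of the contig inside the host gave 32.39% over an exon, 10.5% at the 5' end and 11.4% with a junction. With the end itself inside the contig, 10.98% lay at the 5' end and 5.439% at the 3' end. A window of 10 kb put 11.3% downstream of a same-strand gene. With 3 reads, 27.2% met a junction, and with 1 mm9 replicate left out 10.67 to 10.77% did. Without a level filter 92 of 746 opposite-strand genes reached a fold of 2 between the libraries. Leaving out 1 library gave 161 to 165 hosts with a detected opposite-strand gene, and the median log2 ratio stayed between -0.0229 and 0.

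Chosen after the data were seen, contigs at least as long as a read gave 398 contigs, of which 71.86% overlapped an exon, 31.66% lay at the 5' end, 17.09% at the 3' end, 8.291% downstream of a same-strand gene, 43.72% under a Cufflinks model and 22.11% on a junction, with a median ratio of 1.194. Without exon-shaped contigs 32.47% overlapped an exon and the median ratio was 4.194. Each of these alternatives changes the set by construction. No paired analysis was possible because the study has 1 group. Depth is known only for the pooled contigs, and a level near 1 is a call near the threshold.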
